A study of Oryza sativa with 32 samples.

Results

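The loci described here lie towards the low-coordinate end of rice chromosome 12 (Chr12), from 2.2 to 6.13 Mb in MSUv.7, the assembly and annotation of the japonica variety Nipponbare. This is the segment that the near-isogenic line (NIL) AZU[IR6412.1] received from IR64, and it holds ART1 (LOC_Os12g07280). A locus was a member when the lowest position of its gene models fell inside these ends, which gave 601 loci of the 4014 on Chr12 and of 55986 in the whole annotation. The segment was split at 3.72 Mb. Its left part, 230 loci over 1.52 Mb, was also exchanged in the reciprocal line IR64[AZU12.1], while the right part, 371 loci over 2.41 Mb, was exchanged in AZU[IR6412.1] alone. The introgression of IR64[AZU12.1] began before the segment, so it also took in some of the first 2.2 Mb of Chr12.

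The study compared root transcriptomes of Azucena, an Al-resistant tropical japonica variety, of IR64, an Al-sensitive indica variety, and of the 2 reciprocal NILs, labelled AZU[IR64121] and IR64[AZU12.1]. Seedlings of all 4 genotypes grew for 5 days without Al, and then 20 per genotype spent 4 h in a solution of 80 µM Al3+ activity or remained under control conditions before whole roots were taken. Each of the 8 groups had 4 biological replicates, 32 libraries in all. Each NIL is a single line, so a difference between a NIL and its recurrent parent can arise from any locus of its introgression and cannot be assigned to one of them by that contrast. The deposited table analysed here describes gene models and holds no value of any library, so the results are counts, shares and lengths of annotated loci. No test was run on them. Many counts are given beside the same counts elsewhere, and whether any of them differ beyond chance was not tested.

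In a near-isogenic line, backcrossing replaces a target region by the donor's chromosome while the rest of the genome comes from the recurrent parent, and the donor piece carries all neighbours of the target gene with it. ART1 encodes a C2H2 zinc finger transcription factor that activates Al resistance genes in rice roots. Neighbouring genes of one family often arise by tandem duplication, and transposable elements (TEs), mobile sequences that copy or move themselves, fill much of the space between plant genes. TE proteins are annotated as loci like other genes, so each locus here carries a mark as TE or not.

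The donor pieces were followed through backcrossing with 3 insertion-deletion markers, whose primers are shown because they delimit what was selected for directly. The study then genotyped the selected plants with a genome-wide SNP array and advanced those with few donor alleles outside the target. The marker indel_3.18 lies at position 3186609, between LOC_Os12g06560 and LOC_Os12g06570, the latter described as a cyclic nucleotide-gated ion channel. The marker indel_ART1 lies at 3581918 inside ART1, and indel_3.62 lies at 3623299 inside LOC_Os12g07350, of the tRNA nucleotidyltransferase and polyA polymerase family. All positions are on Chr12 of MSUv.7, and the primers are given 5′ to 3′ in lower case.
indel_3.18 forward: tgccaaagcgcagagagaga
indel_3.18 reverse: tagtgccgatcgatgtaacg
indel_ART1 forward: cgacgagctcttcaaggtatg
indel_ART1 reverse: gcagcacctcgtacttctcc
indel_3.62 forward: gcacacaccattaagtcaaacaa
indel_3.62 reverse: tccaccaaagattaaggctga
The primers were 20 to 23 nt long. Their GC content ranged from 39.1% for the forward primer of indel_3.62 to 60% for the reverse primer of indel_ART1. The outer markers were 437 kb apart and enclosed 73 loci, of which 15 were marked as TE. The other 528 members lay outside the markers, on 0.987 Mb to the left and 2.51 Mb to the right, and came with the donor piece.

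The ends and the split of the segment fell mostly between loci. The last locus before the segment was LOC_Os12g05040, a heavy-metal-associated domain protein that ended 1150 bp before the left end, and the first member was LOC_Os12g05050, described as the stem-specific protein TSJT1, at 2215862. The last member was LOC_Os12g11340, a CACTA transposon at 6112752, and LOC_Os12g11360, an expressed protein of unknown function, started 4562 bp past the right end. The split ran through 1 locus, LOC_Os12g07490, a subunit of the Sec61 channel that passes proteins into the endoplasmic reticulum. It started 172 bp before the split and was counted on the left. ART1, at 3580032 to 3582974 on the plus strand, was locus 211 of 601 in order, 1.38 Mb from the left end and 2.55 Mb from the right end, and 137 kb before the split.

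Loci were about equally dense in both parts, but the right part held more TEs. The left part had 151 loci per Mb and the right part 154, against 145 on the rest of Chr12. Loci not marked as TE numbered 126 per Mb in the left part (191 loci), 96.7 in the right part (233 loci) and 85.3 on the rest of Chr12. TE loci made up 17.0% of the left part (39 of 230, exact 95% Clopper-Pearson interval 12.3% to 22.4%) and 37.2% of the right part (138 of 371, 32.3% to 42.3%). On the rest of Chr12 they made up 41.0% (1399 of 3413, 39.3% to 42.7%). These intervals treat loci as independent draws, which neighbouring loci are not, and describe only the precision that the number of loci allows. The left part was close to the first 2.2 Mb of the chromosome, with 17.3% TE loci (67 of 387), while the stretch of equal length after the segment had 51.2% (298 of 582). The shares were thus low before and in the left part and higher in the right part and the stretch after it, as the plot along Chr12 shows. Towards the far end of Chr12 some bins were low again, with 13.7% at 19.67 Mb from ART1 and 11.1% at 23.67 Mb. The bin at 23.17 Mb had 34.1%.

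**Figure D1:**
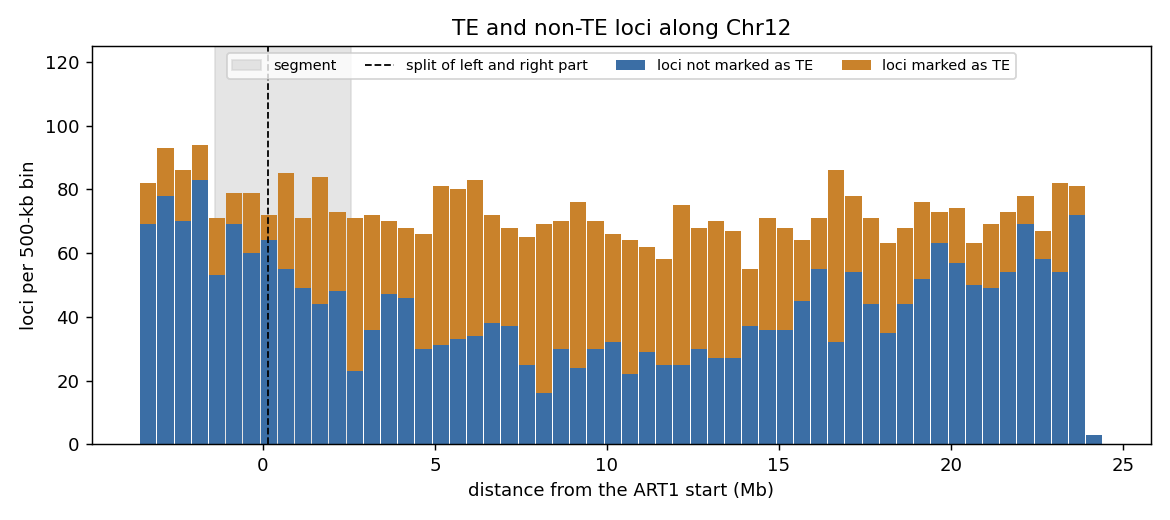
Loci per 500-kb bin along Chr12 (y axis) against the distance of the bin centre from the ART1 start in Mb (x axis), with loci not marked as TE in blue, TE loci stacked on them in orange, the segment shaded and its split dashed. Bins to the left of the segment hold 11 to 16 TE loci among 82 to 94, the bin at 1.67 Mb holds 40 of 84, and the last bin is incomplete.

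Set against the genome, the segment as a whole was intermediate in TE share. When the 12 chromosomes were tiled with windows of its length, 44 of 88 other windows had a lower TE share and 44 a higher one, with a range of 9.08% to 64.8%. On Chr12 itself, all 5 other windows lay after the segment, since the 2.2 Mb before it are shorter than a window. Of these windows, 4 had a higher share, and the first 2.2 Mb, with 17.3% TE loci, were not ranked. The left part was lowest among the ranked Chr12 windows of its length, where the 16 others had shares from 17.5% to 70.6%. Pieces at the chromosome ends too short for a window were left out. They included the first 500-kb bin, with 15.9% TE loci, and the bin at 23.67 Mb from ART1, with 11.1%. Over all 12 chromosomes, 58 of 238 windows were lower than the left part. For the right part, 93 of 146 windows were lower and 53 higher. These ranks describe position among windows and carry no p-value.

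TE loci also took more of the sequence in the right part. Loci of all kinds covered 42.4% of the left part and 43.1% of the right part. TE loci covered 9.76% of the left part and 17.1% of the right part, against 19.1% of the rest of Chr12. Loci not marked as TE covered 32.6% of the left part, 26.3% of the right part and 23.3% of the rest. The mark as expressed, which belongs to the annotation and not to the root libraries, was carried by 90.1% of non-TE loci on the left (172 loci) and 90.6% on the right (211 loci), against 92.4% on the rest of Chr12. Among TE loci it was carried by 87.2% on the left (34 loci) and 70.3% on the right (97 loci), against 75.5% on the rest.

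In bins of 100 kb, the TE share varied within the left part, up to 40.0% (6 of 15 loci) in the bin at -0.53 Mb from ART1. The 15 full bins of the left part held 9 to 21 non-TE loci, median 12, and 0 to 6 TE loci, median 3. None of them held more TE than non-TE loci. The 23 full bins of the right part held 1 to 16 non-TE loci, median 11, and 1 to 15 TE loci, median 4, and in 4 of them TE loci outnumbered the others. Those 4 bins lay at 0.77, 1.67, 1.77 and 2.47 Mb from ART1. The full bins nearest the split on the right, at 0.27, 0.37, 0.47 and 0.57 Mb, had TE shares of 14.3%, 14.3%, 15.8% and 18.8%. The next bin, at 0.67 Mb, had 45.8%, so the rise in TE share lay past the split and not at it. The bin at 1.67 Mb held 14 TE loci and 1 other locus, LOC_Os12g09880, an expressed protein of 267 bp. The bin at 2.47 Mb held 15 TE loci and 2 others.

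**Figure D2:**
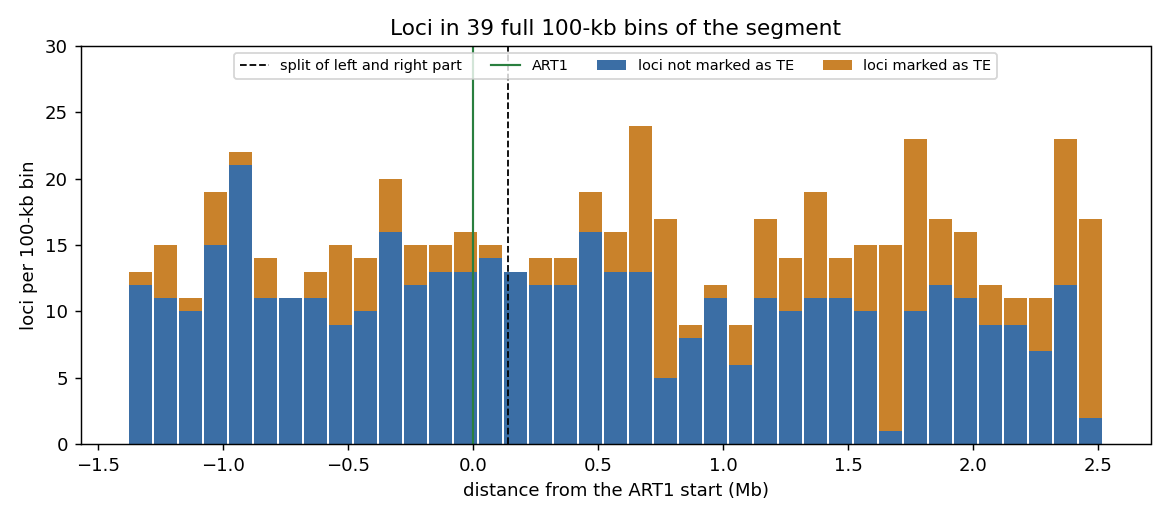
Loci in the 39 full 100-kb bins of the segment (y axis) by distance of the bin centre from the ART1 start in Mb (x axis), with non-TE loci in blue, TE loci stacked in orange, ART1 as a green line and the split dashed. TE loci are 0 to 6 per bin left of the split and reach 14 and 15 in the bins at 1.67 and 2.47 Mb.

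Retrotransposons, which copy themselves through RNA, made up most TE loci of the segment, 135 of 177 (76.3%), and DNA transposons, which move by cutting and pasting, 35 (19.8%). On the rest of Chr12 the corresponding shares were 71.0% and 22.9%. The most frequent description was retrotransposon without a subclass, with 78 loci. Ty3-gypsy elements followed with 40 loci, CACTA (En/Spm) DNA transposons with 18 and Ty1-copia retrotransposons with 11. The remaining classes were small, with 9 unclassified transposons, 5 centromere-specific retrotransposons, 3 Mutator, 2 Mariner and 2 Pong or Ping elements, 1 LINE and 1 element of the Ac/Ds group. A further 7 loci were marked as TE but described as something else.

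The classes were spread unevenly over the parts. Ty3-gypsy elements numbered 3 on the left and 37 on the right, or 1.97 and 15.4 per Mb, against 15.0 per Mb on the rest of Chr12. CACTA elements numbered 1 on the left and 17 on the right, or 0.658 and 7.05 per Mb, against 8.98 on the rest. All 5 centromere-specific elements lay on the right, or 2.07 per Mb there, against 1.86 on the rest. Ty1-copia elements had 2.63 per Mb on the left and 2.90 on the right, with 75 such loci over 23.6 Mb on the rest. All 3 Mutator and both Pong or Ping elements of the segment lay on the left, and the rest of Chr12 had 4 and 6 of them. With so few loci the counts of these small classes allow no statement on their density.

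**Figure D3:**
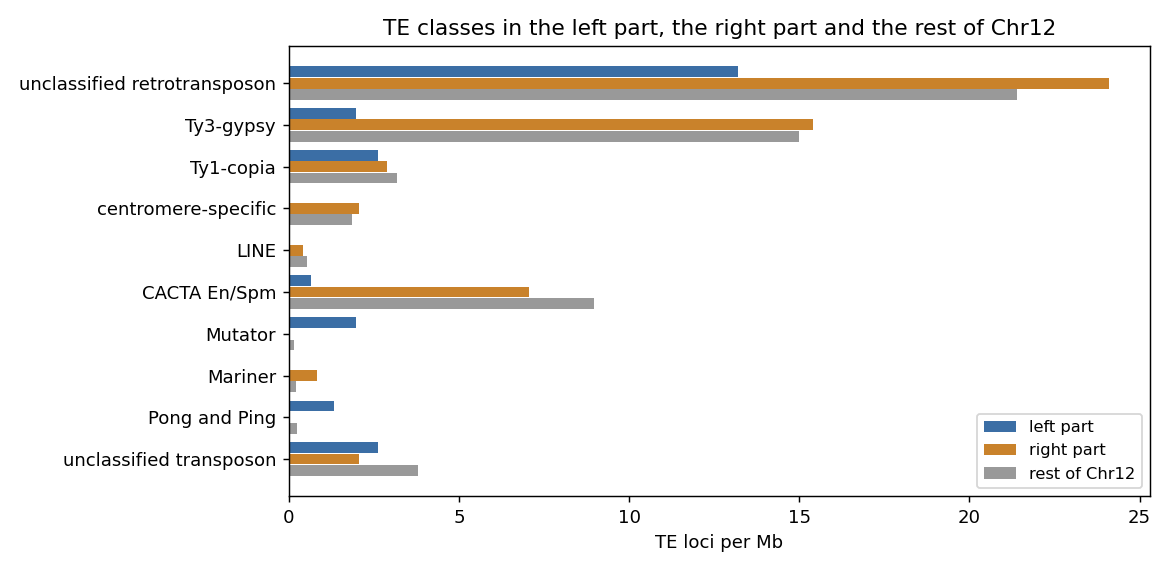
TE loci per Mb (x axis) for 10 TE classes (y axis) in the left part (blue), the right part (orange) and the rest of Chr12 (grey), single values with no error bars. Ty3-gypsy reads 1.97 on the left and 15.4 on the right, and CACTA 0.658 and 7.05.

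TE loci stood in longer runs on the right. In the left part the longest run of consecutive TE loci had 4 members, from LOC_Os12g06350 to LOC_Os12g06380 over 19.8 kb, and 2 runs had 3 or more. In the right part 13 runs had 3 or more members and held 83 of its 138 TE loci. The longest, 13 loci from LOC_Os12g11080 to LOC_Os12g11210, spanned 73.3 kb and consisted of 9 Ty3-gypsy, 3 unclassified retrotransposons and 1 CACTA element. A run of 10 spanned 56.9 kb from LOC_Os12g09890 to LOC_Os12g10000. A run of 8, LOC_Os12g08400 to LOC_Os12g08470, held 6 unclassified retrotransposons, 1 Ty3-gypsy and 1 centromere-specific element. Long runs were not particular to the right part. The longest TE run on Chr12 beyond the segment had 22 members, and after the segment 165 runs had 3 or more, with 930 TE loci. The first 2.2 Mb had 6 such runs, with 21 of its 67 TE loci. The longest TE loci of the segment were unclassified retrotransposons, LOC_Os12g05310 with 16627 bp on the left and LOC_Os12g08564 with 16593 bp on the right. The latter had 4 gene models, of which 3 ran the whole length and the representative one had 1841 bp. By representative model, LOC_Os12g10830, with 13491 bp, was the longest on the right.

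Some stretches of the right part held few or no genes with a described product. Between LOC_Os12g09790, a cytochrome P450, and LOC_Os12g10100, described as ligA, no described non-TE locus occurred over 162 kb, where 25 of 27 loci were TEs. The longest stretch without any non-TE locus, 80926 bp, lay between LOC_Os12g11070 and LOC_Os12g11220. The longest without any locus at all was 26841 bp, between LOC_Os12g10580 and LOC_Os12g10590. The surroundings of ART1 were of the other kind. The nearest TE locus on the left was LOC_Os12g07240, a Ty3-gypsy element 16.1 kb away, and on the right LOC_Os12g07410, 75.3 kb away. Between these TEs stood 14 loci, ART1 among them, and 5 other TE-free stretches of the segment held more. The most was 21 loci, in 2 stretches, of which one ran from LOC_Os12g07410 across the split to LOC_Os12g07630 over 171 kb.

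Of the 424 non-TE loci, 241 had a description that names a product or domain. The other 183 (43.2%) were uninformative, 148 expressed proteins, 34 hypothetical proteins and 1 conserved hypothetical protein, against 46.8% on the rest of Chr12 and 31.2% in the first 2.2 Mb. The share was 40.8% on the left and 45.1% on the right. Uninformative loci were shorter. Their median length in the segment was 934 bp, against 3200 bp for described loci, and hypothetical proteins had a median of 474.5 bp. The described loci carried 201 different descriptions, of which 174 were used once in the segment and 9 were used 3 times or more. By the family patterns applied to these descriptions, the segment held 19 transcription factor loci, 13 transporters, 14 resistance protein loci and 11 protein kinases. A further 13 loci matched patterns of the ubiquitin pathway or of proteases, not all of which act with ubiquitin. These 13 made up 3.07% of non-TE loci, against 4.37% on the rest of Chr12 and 4.64% on all 12 chromosomes.

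Transcription factors made up 4.48% of the segment's non-TE loci, 5.76% on the left and 3.43% on the right, against 3.53% on the rest of Chr12 and 3.99% on all 12 chromosomes. All 19 carried the mark as expressed, and their lengths ran from 1152 to 10911 bp with a median of 2943 bp. ART1 was one of 2 C2H2 zinc finger loci. The other, LOC_Os12g05920 (ZOS12-01), lay 856 kb to the left at 2724033, on the same strand, with 2317 bp against 2943 bp for ART1. Each had a single gene model, and both lay in the left part, so both were exchanged in both NILs.

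The left part also held LOC_Os12g06200, a member of the E2F family that controls entry into DNA replication, and LOC_Os12g06540 of the GRAS family, whose members act in gibberellin signalling and root patterning. Homeodomain proteins were LOC_Os12g06340, a BEL1-like protein with 3 gene models, and LOC_Os12g06640. Nearest to ART1 were LOC_Os12g07120, with a GATA zinc finger, 83.7 kb to the left, and LOC_Os12g07480 of the TCP family, growth regulators of plants, 129.7 kb to the right. LOC_Os12g05680 was described only as a transcription factor. Its gene overlapped LOC_Os12g05660, a dual specificity phosphatase on the opposite strand, by 2192 bp.

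NAC and bZIP factors occurred in both parts. The NAC proteins, described as no apical meristem proteins after the petunia gene needed for shoot meristem formation, were LOC_Os12g05990 on the left and LOC_Os12g07790 on the right. The bZIP loci were LOC_Os12g06520 on the left with 3781 bp and LOC_Os12g09250 on the right with 10911 bp. In the right part, 2 MYB factors, LOC_Os12g07610 and LOC_Os12g07640, stood on opposite strands within 42.2 kb. A pair of MADS-box loci, OsMADS33 (LOC_Os12g10520) and OsMADS13 (LOC_Os12g10540), stood within 20.9 kb on opposite strands. OsMADS13 acts in ovule identity in rice, and its 5 gene models were the second most of any member. LOC_Os12g10630, with a ZF-HD dimerisation region, and LOC_Os12g10660, a B-box zinc finger protein, completed the list. No WRKY, bHLH, AP2/ERF or heat shock factor matched in the segment (0 loci each), while the rest of Chr12 had 7, 9, 4 and 0.

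The 13 transporter loci matched by the patterns made up 3.07% of non-TE loci, against 1.99% on the rest of Chr12 and 1.98% on all 12 chromosomes. A transporter described in other words is not counted. Of these, 6 lay on the left and 7 on the right. Closest to ART1 was LOC_Os12g07270, a bile acid sodium symporter family protein of 3565 bp on the minus strand, the adjacent locus on the left. LOC_Os12g06050 was the only locus described as MATE, a family that includes citrate exporters of cereal roots. With 552 bp it was the second shortest of the transporter loci after LOC_Os12g10240, an amino acid carrier of 424 bp. Amino acid transport was the most frequent function. LOC_Os12g06060 was an amino acid permease, and 4 loci were described as amino acid transporters, in pairs LOC_Os12g08090 with LOC_Os12g08130 and LOC_Os12g09300 with LOC_Os12g09320, both pairs on the right and each with 1 locus per strand.

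The other transporters were single loci or a loose pair. LOC_Os12g05780 and LOC_Os12g05830, described only as transporter-related, lay on opposite strands within 25.2 kb with 3 loci between. LOC_Os12g06570, a cyclic nucleotide-gated ion channel, belongs to cation channels of the plasma membrane. LOC_Os12g07970 of the major facilitator family had 4 gene models. LOC_Os12g10280 was an aquaporin, a channel for water and small solutes. No locus of the segment was described as an ABC transporter, against 5 on the rest of Chr12.

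**Figure D4:**
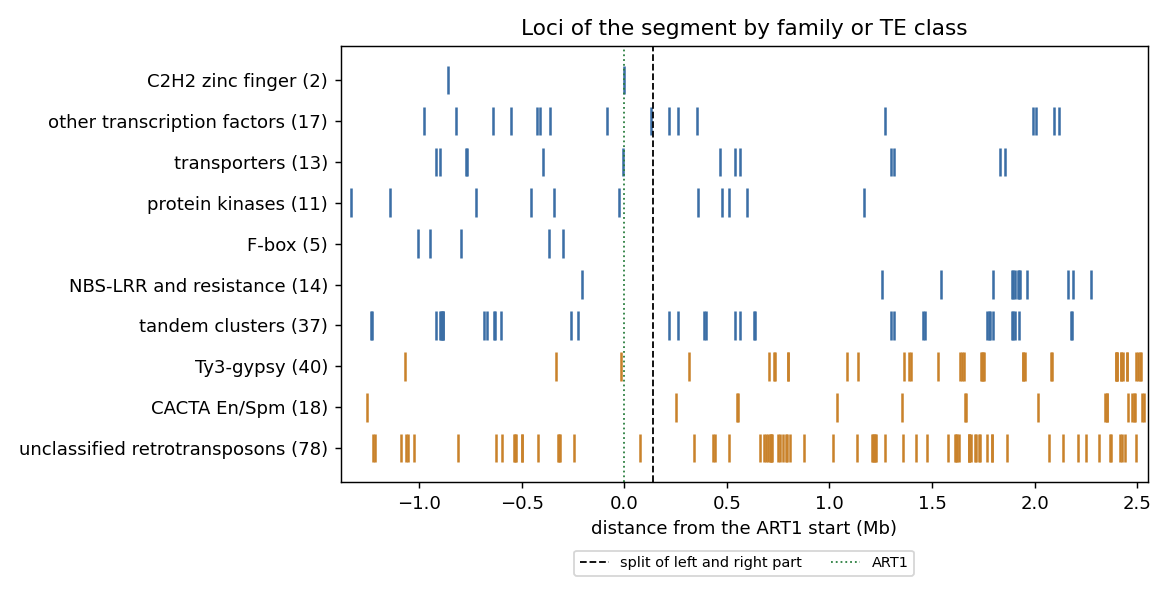
Start positions of loci of 7 gene groups (blue ticks) and 3 TE classes (orange ticks), by distance from the ART1 start in Mb (x axis), with the number of loci in brackets, ART1 dotted and the split dashed. The 5 F-box loci lie left of the split and 13 of 14 resistance protein loci right of it.

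Resistance protein loci were mostly on the right. Most of their descriptions name the nucleotide-binding (NB-ARC or NBS) domain, the leucine-rich repeat (LRR) domain or both, as found in intracellular immune receptors. The others name only a resistance protein or, for LOC_Os12g10460, only rp1. LOC_Os12g10740 was described only as a leucine-rich repeat family protein, without naming resistance. The segment held 14, or 3.30% of its non-TE loci, 1 on the left (0.524%) and 13 on the right (5.58%). The rest of Chr12 had 52 (2.58%) and all 12 chromosomes 600 (1.54%). The single locus on the left, LOC_Os12g06920, lay 204.6 kb before ART1 and had 5814 bp. Their lengths ran from 1884 to 12454 bp with a median of 4592.5 bp, and 13 of the 14 carried the mark as expressed.

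Of the 13 on the right, 7 formed one run of 76.3 kb from 5469044 to 5545313, with 7 other loci between them. On the minus strand it held LOC_Os12g10330 and LOC_Os12g10360, NB-ARC proteins of 2326 and 1929 bp, and LOC_Os12g10390, LOC_Os12g10410 and LOC_Os12g10460. On the plus strand were LOC_Os12g10340, between the NB-ARC proteins, and LOC_Os12g10400, between LOC_Os12g10390 and LOC_Os12g10410. With 2125 and 4892 bp, they were the only 2 loci of the 12 chromosomes described as NBS-LRR type resistance protein. LOC_Os12g10460, the last of the run, was described as rp1, after the rust resistance locus of maize, and was the one without the mark as expressed. Outside the run, LOC_Os12g10180 was named after Rps1-k-2 of soybean, and LOC_Os12g10710 spanned 12454 bp over its 2 gene models, the second longest non-TE locus of the segment, though its representative model had 6896 bp. Near-identical copies of such genes can share reads, so that counts of single members would be uncertain.

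All 5 F-box loci, which choose substrates for ubiquitin ligases, lay on the left. LOC_Os12g05609 (OsFBO24) and LOC_Os12g05709 each had 1260 bp, on opposite strands. LOC_Os12g06030 (OsFBX439) and LOC_Os12g06740 (OsFBX440) were single F-box proteins, and LOC_Os12g06630 (OsFBT14) carried a tubby domain and had 3 gene models. The rest of Chr12 had 41 F-box loci, 2.04% of non-TE loci, against 1.18% in the segment. LOC_Os12g06870 and LOC_Os12g06890, OsNucAP2 and OsNucAP3, are homologues of a nucleoporin that cleaves itself, and stood on the plus strand within 15.0 kb with lengths of 6282 and 6351 bp.

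Protein kinases were split 6 to 5 between left and right, and 9 of the 11 were on the minus strand. They made up 2.59% of non-TE loci, against 2.48% on the rest of Chr12 and 3.36% on all 12 chromosomes. LOC_Os12g06110, of 1109 bp, was described as a BRASSINOSTEROID INSENSITIVE 1-associated receptor kinase, a co-receptor of hormone and immune receptors in Arabidopsis. LOC_Os12g07230, a kinase of the calcium- and calmodulin-dependent group, was nearest to ART1, 26.6 kb to the left. LOC_Os12g07800, an S-locus-like receptor kinase, followed the NAC locus LOC_Os12g07790. LOC_Os12g09089, described as the effector kinase PKN/PRK1, was the longest non-TE locus of the segment with 12846 bp. LOC_Os12g09120, an mRNA-capping enzyme of 12279 bp, was the third longest by locus span and the second by representative model.

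Tandem clusters, groups of loci with the same description and at most 5 other loci between neighbours, numbered 17 and held 37 loci, 15.4% of described non-TE loci. The share was 15.6% on the rest of Chr12 and 15.0% on the other 11 chromosomes. By part it was 13.3% on the left (15 loci in 6 clusters) and 17.2% on the right (22 loci in 11 clusters). By identical description, only 2 clusters had more than 2 members, both on the left. When loci of one family pattern were grouped in place of identical descriptions, there were 15 groups, and those with more than 2 members were the 4 cupins on the left and, on the right, 3 methyltransferases and the 7 resistance protein loci of the run. By identical description, the largest cluster had 4 members in the segment and 6 on the rest of Chr12, where 23 of 66 clusters had 3 or more. No count of groups by family pattern is given for the rest of Chr12.

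The largest cluster by identical description had 4 cupin domain proteins, a barrel-shaped fold shared by seed storage globulins and germins. LOC_Os12g05840 ran from 2688756 to 2689826, LOC_Os12g05860 from 2692485 to 2693511, LOC_Os12g05870 from 2696407 to 2697214 and LOC_Os12g05880 from 2699175 to 2700272. All 4 were on the minus strand with no other locus between them, over 11.5 kb, and were 808 to 1098 bp long. They were the only cupin or germin loci on Chr12, against 59 on the 12 chromosomes. The 3 harpin-induced domain proteins LOC_Os12g06210, LOC_Os12g06220 and LOC_Os12g06260, relatives of a tobacco gene induced by bacterial harpin, formed the other such cluster. They were also all on the minus strand, with 675, 1002 and 1397 bp over 33.0 kb, and 1 of the 3 loci between them was a TE.

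**Figure D5:**
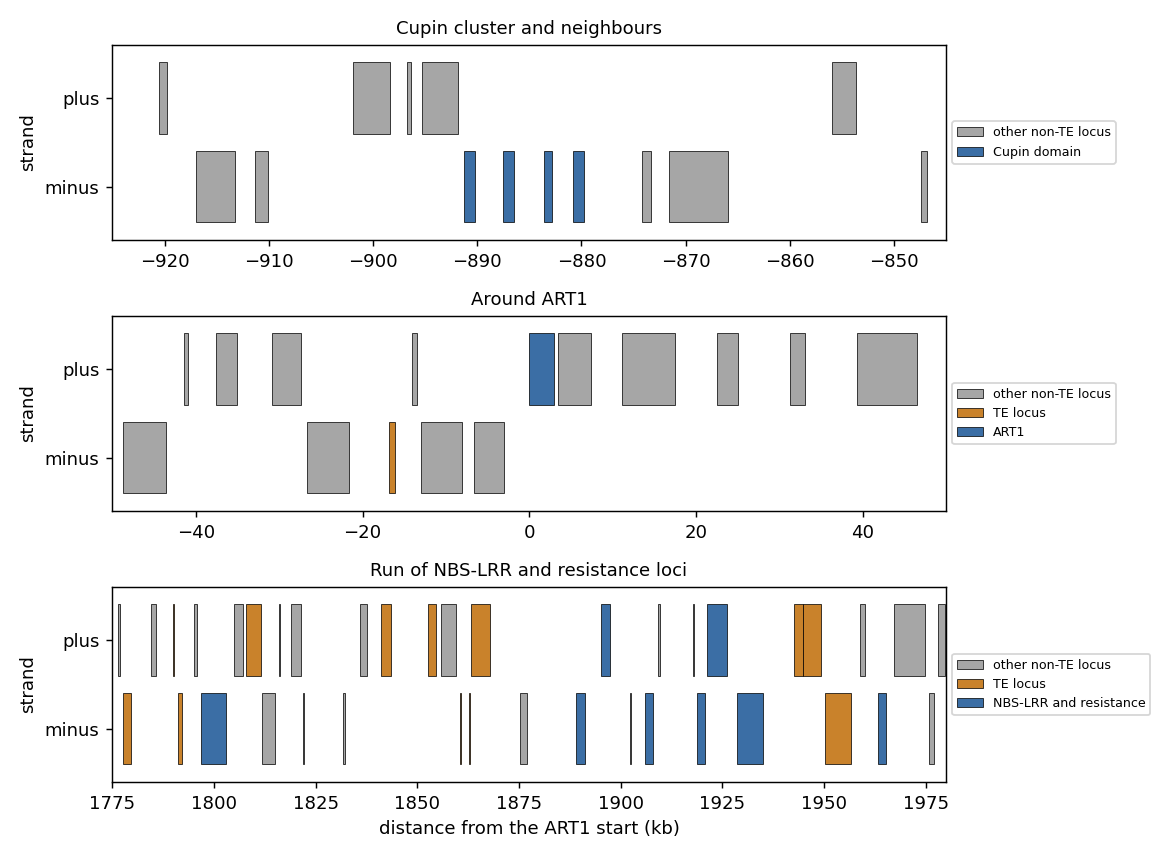
Loci on the plus and minus strands (y axis) by distance from the ART1 start in kb (x axis) around the cupin cluster (top), ART1 (middle) and the run of resistance protein loci (bottom). Blue boxes are the loci named in each panel, orange boxes TE loci and grey boxes other loci. The 4 cupin loci stand side by side on the minus strand.

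All 3 loci of the 12 chromosomes described as citrate-binding protein precursors lay in the left part. LOC_Os12g06830, with 928 bp on the plus strand, and LOC_Os12g06900, with 1572 bp on the minus strand, formed a pair over 37.7 kb. LOC_Os12g07310, with 2484 bp, lay further on, with 37 loci between it and LOC_Os12g06900, and 19.6 kb past the end of ART1. A protein of that name was described from vacuole-like organelles of the rubber tree. Other pairs on the left were the C3HC4 zinc finger loci LOC_Os12g05270 and LOC_Os12g05280, both on the plus strand within 4.93 kb, and the DUF623 loci LOC_Os12g06150 and LOC_Os12g06160, a domain now known from ovate family proteins. The defensin-like loci LOC_Os12g06750 (DEFL16) and LOC_Os12g06760 (DEFL17), small secreted proteins of 785 and 536 bp, stood within 4.01 kb and neither carried the mark as expressed.

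In the right part every cluster of identical descriptions was a pair. The inositol-1-monophosphatase loci LOC_Os12g08270 and LOC_Os12g08280, which release free inositol, stood side by side on the minus strand over 6.29 kb, 2 of 8 such loci on the 12 chromosomes. LOC_Os12g08270 overlapped LOC_Os12g08260, a dehydrogenase E1 component protein on the opposite strand, by 285 bp. LOC_Os12g08260 had 7 gene models, the most of any member. The leafbladeless1 loci LOC_Os12g09580 and LOC_Os12g09590, named after a maize gene of the trans-acting siRNA pathway, were the only 2 with that description on the 12 chromosomes. They had 5694 and 5421 bp and lay on the minus strand over 15.4 kb. Each carried a single gene model.

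Several pairs on the right are of enzymes of redox and secondary metabolism. The glutathione S-transferases LOC_Os12g10720 and LOC_Os12g10730, which conjugate glutathione to reactive compounds, were adjacent on the plus strand over 7.29 kb and had 3 and 2 gene models. Chr12 held only 1 further locus of that family. The ascorbate peroxidases OsAPx6 (LOC_Os12g07820) and OsAPx5 (LOC_Os12g07830), which remove hydrogen peroxide, stood within 8.03 kb on the minus strand with 3838 and 3490 bp. Their descriptions call them stromal, an automatic label that was not checked here. LOC_Os12g07840 and LOC_Os12g07870, dehydration response related proteins, followed on the plus strand. O-methyltransferases numbered 3, all on the right, with LOC_Os12g10140 and LOC_Os12g10170 as a pair of 1382 and 624 bp over 11.3 kb and LOC_Os12g09770 apart from them. In all, 16 of the 20 enzyme loci matched by the patterns lay on the right, 6.87% of its non-TE loci against 2.09% on the left, 3.97% on the rest of Chr12 and 5.79% on all 12 chromosomes. The patterns cover some enzyme families only, so the count is not one of all enzymes. Pyruvate kinase LOC_Os12g05110 and the amidase LOC_Os12g07150 on the left, and inositol-1-monophosphatase LOC_Os12g08270 on the right, fell outside them.

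A pair with the same description, csAtPR5, lay across the split, LOC_Os12g07370 at 3627680 on the left and LOC_Os12g07500 at 3723611 on the right, with 13 loci between. The first was therefore exchanged in both NILs and the second only in AZU[IR6412.1]. The most repeated description was ligA, with 5 loci, LOC_Os12g05360 on the left and LOC_Os12g07620, LOC_Os12g09230, LOC_Os12g10100 and LOC_Os12g10120 on the right. The last pair had 450 bp each. Only LOC_Os12g10120 of these lacked the mark as expressed.

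Gene lengths overlapped widely between the parts. The median length of non-TE loci was 1792 bp on the left (quartiles 911.5 and 3753 bp) and 2048 bp on the right (749 and 3916 bp), against 2050.5 bp on the rest of Chr12, so the interquartile ranges overlapped. Among described loci the medians were 3156 and 3219.5 bp, against 3087.5 bp on the rest. More than 1 gene model was annotated for 14.1% of non-TE loci on the left (27 loci) and 9.44% on the right (22 loci), against 13.1% on the rest. The plus strand held 51.3% of loci on the left and 49.1% on the right. Neighbouring non-TE loci shared a strand in 58.1% of 191 pairs on the left and 41.6% of 233 pairs on the right, against 53.3% on the rest of Chr12. In the segment 8 pairs of loci overlapped, 6 of them on opposite strands, and 6 pairs held no TE.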

How the data were processed

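Roots of the 4 genotypes were sequenced with and without Al. Per the labels, Trimmomatic, Bowtie and HISAT were used on the reads. The processed table that the authors deposited is the MSUv.7 list of gene models, with 66338 lines, and its values are other than expression, namely positions in bp with marks and descriptions. It has 0 columns of single libraries, so depth and expression are not analysed here, and no test was run.

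All models of a locus together set its ends. TE mark, description and strand came from the representative model, and the mark as expressed from any model. Descriptions were cleaned of qualifiers and matched to family patterns by the first match. Tandem clusters held identical descriptions with at most 5 loci between. Genes named were those of clusters of 3 or more, transcription factors, transporters, C2H2 loci, edge loci, the 3 longest non-TE loci, those with most models and those at the longest gaps. Other named loci, and the extended family patterns, were chosen after their values were seen. The members and lists were chosen with earlier results of these data known. Counting rules were tested on simulated data. Primers came from the study's supplement. Of 39387 RefSeq genes none (0) matched a locus by identifier. Python 3.11.15, pandas 2.3.3, numpy 2.4.6, scipy 1.17.1 and matplotlib 3.10.9 were used.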

Additional observations from a re-analysis of the deposited data

How the results depend on the processing

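Of 58 alternative values, 8 moved: shares were judged by the exact 95% interval of the stated share, median lengths by the 95% interval of the median, and counts and densities by a change of over 1.5 times. The TE share of the left part was 23.0% when counted over covered positions in place of loci. The TE share of the rest of Chr12 was 44.0% without the first 2.2 Mb and 51.2% in the stretch of equal length after the segment. Density in the right part was 96.7 per Mb when TE loci were left out. Tandem clusters numbered 6 with no locus allowed between members and 9 with at most 1. The other values that moved are shares of descriptions found on Chr11, given below. Moving the ends by 0.05 Mb gave 615 members outward and 590.0 inward. No paired analysis was possible because no table of library values was analysed. Nipponbare loci stand for Azucena and IR64, whose own gene content was not analysed here, and descriptions are automatic labels, so that a shared description does not show a shared origin.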

Other observations

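Descriptions shared with Chr11 were counted, a comparison chosen after the values were seen. The ends of Chr11 and Chr12 of rice share a duplicated block at their start. Of described non-TE loci whose description occurs at most 5 times on the 12 chromosomes, 45 of 87 (51.7%) in the first 2.2 Mb of Chr12 had a locus of the same description on Chr11. In the left part this held for 9 of 46 (19.6%) and in the right part for 8 of 51 (15.7%), and in both parts Chr4 gave as many as Chr11, with 9 and 8. After the segment it held for 32 of 412 (7.77%). With descriptions held by at most 2 loci, the shares were 30.9%, 0% and 8.82% for the first 2.2 Mb, the left and the right part. Of these, 30.9% and 0% were among the values that moved, so these shares depend on that limit. With descriptions held by at most 10 loci the shares were 60.7%, 32.8% and 17.1%.

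The 17 pairs of the segment included 15 whose Chr11 locus lay in the first 10 Mb, and 11 of these 15 had the same strand on both chromosomes. No count for pairs with another chromosome is given beside it, and whether it differs from chance was not tested. LOC_Os12g05050, the first member, described as the stem-specific protein TSJT1, was paired with LOC_Os11g05050 at 2204509 on Chr11. LOC_Os12g06850, a transcription elongation factor, was paired with LOC_Os11g06650, and LOC_Os12g07010, ribosomal protein L3, with LOC_Os11g06750. On the right, LOC_Os12g07700, described as nifU, a scaffold for iron-sulphur clusters, was paired with LOC_Os11g07916, and LOC_Os12g09120, the mRNA-capping enzyme, with LOC_Os11g11070. All pairs named so far had the same strand. Pairs on opposite strands included LOC_Os12g07490 with LOC_Os11g01300 at 162282 and LOC_Os12g07680 with LOC_Os11g01074 at 35928, both near the start of Chr11.

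Products usually encoded by the chloroplast genome stood together in the right part, also noticed on reading the descriptions. LOC_Os12g10570 was described as ATP synthase subunit beta, LOC_Os12g10580 as the large chain of RuBisCO, LOC_Os12g10590 as the Clp protease OsClp13 and LOC_Os12g10600 as the P680 apoprotein of photosystem II. They were 4 consecutive loci over 35.5 kb, and the longest locus-free stretch of the segment, 26841 bp, lay between the second and the third. The descriptions of LOC_Os12g10570, LOC_Os12g10580 and LOC_Os12g10600 each occurred at 5 loci on 5 chromosomes, once on Chr12. That of LOC_Os12g10590 occurred at 1 locus.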
